A study of Mus with 7 samples.

Results

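The metallothioneins Mt1 and Mt2, the zinc-sensing transcription factor Mtf1, the zinc exporters Slc30a1 and Slc30a5, and the zinc importers Slc39a1, Slc39a6, Slc39a10 and Slc39a14 were followed in single mouse macrophages across 7 culture conditions. These 9 genes, of 31053 in the count files, were picked out by symbol, with earlier results of these data known. The cells were fetal liver-derived macrophages (FLMs), a self-renewing culture grown from dissociated livers of wild-type C57BL/6J fetuses in medium with 30 ng/mL GM-CSF, and each condition was a single library of the 10x 3' kit. Con cells were collected in 10% FBS before any treatment. The other 6 libraries came from cells moved for 24 h to 0.25% FBS with 8.3 µM BSA, which either carried 25 µM docosahexaenoic acid (DHA) or was given alone as the vehicle (Veh), GM-CSF being present throughout. Veh.LPS.0 and DHA.LPS.0 were collected at the end of those 24 h. For Veh.LPS.1, DHA.LPS.1, Veh.LPS.4 and DHA.LPS.4 the medium with DHA or BSA was taken off and 20 ng/mL bacterial lipopolysaccharide (LPS) in the treatment medium was put on for 1 or 4 h. Con therefore differs from Veh.LPS.0 in serum, BSA and time in culture at once, and these cannot be told apart. An LPS library likewise differs from its 0 h library in LPS, in the change of medium and in the added hours. No library had the medium changed without LPS, so these cannot be told apart either. The LPS ratios below cover them all, as do changes of the DHA ratio between hours.

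Metallothioneins are small cysteine-rich proteins that bind zinc and copper ions, and their genes are among the most inducible in mammalian cells. MTF-1, the product of Mtf1, binds DNA when free zinc rises and switches on Mt1, Mt2 and Slc30a1, while glucocorticoids, oxidative stress and inflammatory signals also act on the Mt genes. Transporters of the SLC30 (ZnT) family move zinc out of the cytosol, either across the plasma membrane or into organelles, and those of the SLC39 (ZIP) family move it into the cytosol. Macrophages use both families to withhold zinc from microbes or to load them with it.

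On the mouse build GRCm38, Mt2 (ENSMUSG00000031762) lies at chr8:94172618-94173567 and Mt1 (ENSMUSG00000031765) at chr8:94178883-94180327, 5315 bases apart with 0 annotated genes between them. Mtf1 (ENSMUSG00000028890) lies at chr4:124802549-124849800 and shares part of its span with 1110065P20Rik. Slc30a1 (ENSMUSG00000037434) lies at chr1:191906697-191913248 and overlaps 1700034H15Rik, and Slc30a5 (ENSMUSG00000021629) lies at chr13:100802645-100833480. Of the importers, Slc39a1 (ENSMUSG00000052310) lies at chr3:90248190-90253613, Slc39a6 (ENSMUSG00000024270) at chr18:24579881-24603817, Slc39a10 (ENSMUSG00000025986) at chr1:46807544-46925776 and Slc39a14 (ENSMUSG00000022094) at chr14:70303467-70351452. Whether reads were assigned by strand in the overlaps is not given in the sources used here, so the values of Mtf1 and Slc30a1 carry that uncertainty.

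Cells were kept with more than 20000 UMIs (unique molecular identifiers, 1 per captured RNA molecule), at least 2000 genes and under 20% mitochondrial UMIs, which left 692 to 3073 cells and 22045775 to 125716982 UMIs per library. Levels are CPM, the UMIs of a gene among 1000000 UMIs of the library, summed over the kept cells, and 1 UMI was worth 0.00795 to 0.0454 CPM. With 1 library per condition no difference has a replicate check, so ratios are given with 95% exact intervals that cover counting error only, no p-value is given, and a ratio past 1.5-fold is called higher or lower by its size. Of the 9 genes, 8 had a mean of at least 5 CPM over the libraries and entered the counts of such ratios among 8628 genes. Slc30a1, with a mean of 4.18 CPM, did not. Every kept cell had UMIs of at least 3 of 9 macrophage markers and 0 cells had 3 of any list of hepatocyte, erythroid, neutrophil, mast cell, lymphoid or stromal markers. The kept cells being of 1 type, the background of free RNA could not be measured, and the shares of cells below are given without it.

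**Figure D1:**
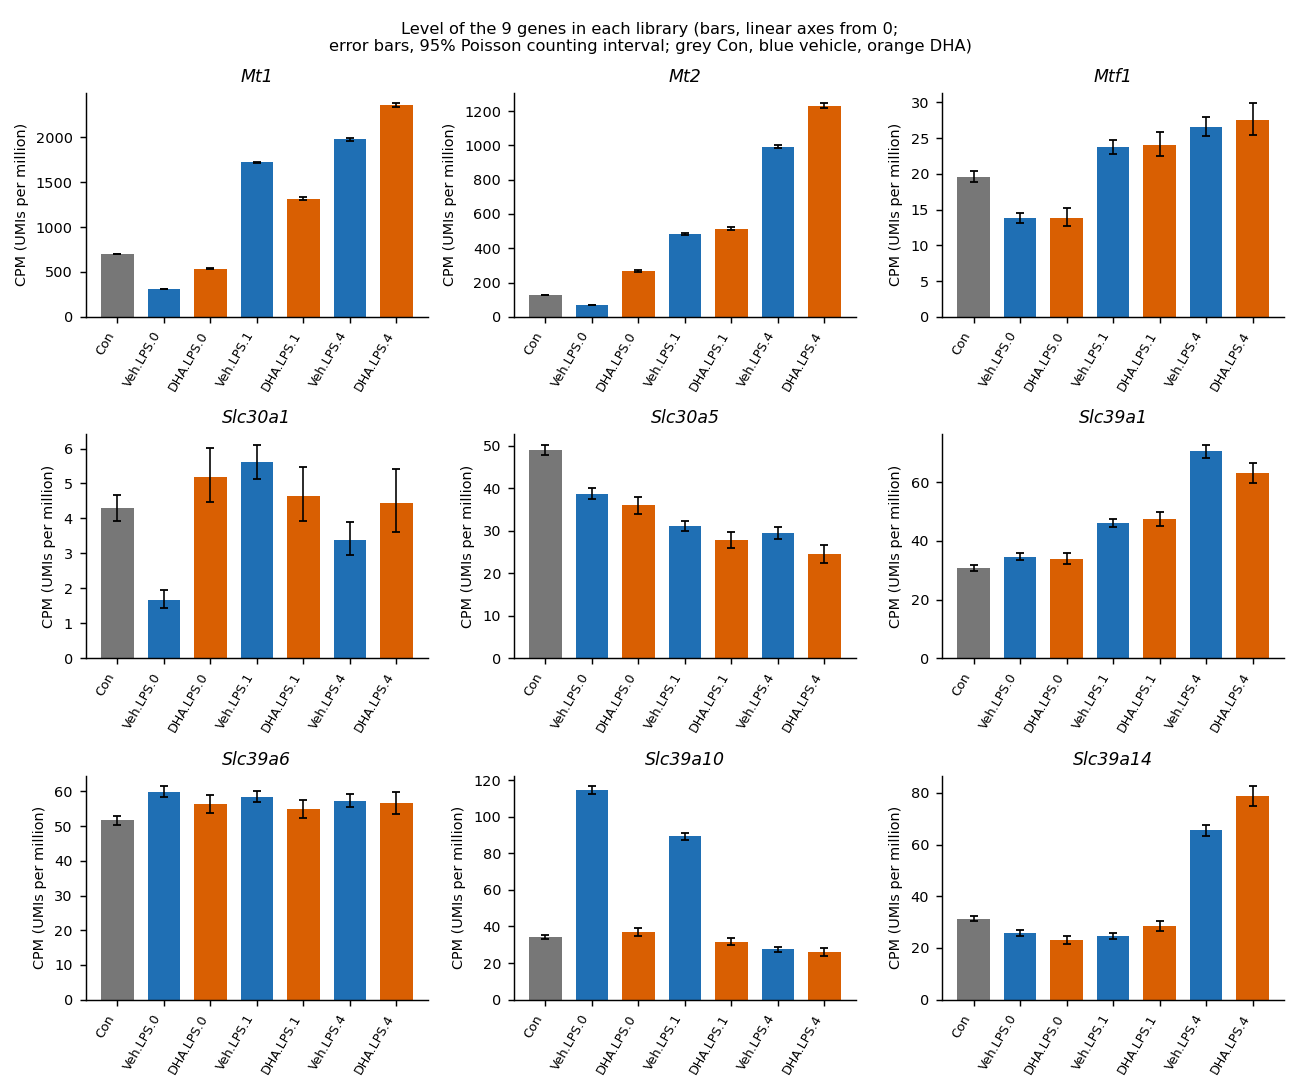
Level of each of the 9 genes in each library, in CPM on a linear axis from 0; each bar is 1 library (grey Con, blue vehicle, orange DHA) and the error bar is the 95% Poisson counting interval. Mt1 and Mt2 were lowest in Veh.LPS.0 and highest in DHA.LPS.4, Slc39a10 stood out in Veh.LPS.0 and Veh.LPS.1, and Slc39a6 stayed between 51.7 and 59.9 CPM.

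Mt1 and Mt2 were the most variable members together with Slc39a10. Mt1 had 699 CPM in Con, 308 CPM in Veh.LPS.0, 537 CPM in DHA.LPS.0, 1719 CPM in Veh.LPS.1, 1317 CPM in DHA.LPS.1, 1975 CPM in Veh.LPS.4, while DHA.LPS.4 had 2357 CPM. Mt2 had 127 CPM in Con, 69.6 CPM in Veh.LPS.0, 268 CPM in DHA.LPS.0, 484 CPM in Veh.LPS.1, 515 CPM in DHA.LPS.1, 992 CPM in Veh.LPS.4, while DHA.LPS.4 had 1231 CPM. Both genes were thus lowest in reduced serum with vehicle and no LPS, and both were above the Con level in all 4 LPS libraries. The highest level was 7.66 times the lowest for Mt1 and 17.7 times for Mt2. The order of the libraries differed between the 2 genes in 2 places: DHA.LPS.1 was below Veh.LPS.1 for Mt1 and above it for Mt2, and Con was above DHA.LPS.0 for Mt1 and below it for Mt2.

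Both metallothioneins were lower in Veh.LPS.0 than in Con. The ratio was 0.440 (95% interval 0.434 to 0.446) for Mt1 and 0.546 (0.531 to 0.562) for Mt2. Mt1 took rank 29 from the bottom among the 8628 genes. Slc30a1 differed the same way, with a ratio of 0.390 (0.325 to 0.465), and Slc39a10 the other way. Of the 8 members counted, 3 were past 1.5-fold, 1 higher and 2 lower, where 17.7% of all genes tested were past it in either direction, 10.3% higher and 7.31% lower.

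The largest differences of the metallothioneins were those of the LPS libraries from the 0 h libraries. In vehicle, Mt1 was 5.59 times (5.52 to 5.66) its 0 h level at 1 h and 6.42 times (6.34 to 6.50) at 4 h. Mt2 was 6.95 times (6.78 to 7.13) its 0 h level at 1 h and 14.3 times (13.9 to 14.6) at 4 h. In CPM, Mt1 had thus come most of the way within 1 h, with a ratio of 1.15 (1.14 to 1.16) from 1 to 4 h. Mt2 went on to 2.05 times (2.03 to 2.08) its 1 h level. At 4 h, Mt2 ranked 39 from the top of all genes tested and Mt1 89.

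The 4 h libraries of vehicle were shifted as a whole, and this bears on every value at that hour. The median log2 ratio of all genes tested was -0.38 for Veh.LPS.4 over Veh.LPS.0. It was 0.05 after scaling with TMM factors, which rest on a trimmed mean of log ratios over genes. With TMM factors the log2 ratio of Mt1 at 4 h was 3.11 and not 2.68, and that of Mt2 4.26 and not 3.83. From 1 to 4 h in vehicle they were 0.54 and not 0.20 for Mt1, and 1.38 and not 1.04 for Mt2. The median of all genes tested from 1 to 4 h in vehicle was -0.30 in CPM. Against the DHA library of 0 h the median at 4 h was -0.27, and between DHA.LPS.4 and Veh.LPS.4 it was 0.09.

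In DHA-treated cells the LPS ratios of the metallothioneins were smaller. Mt1 was 2.45 times (2.41 to 2.50) the DHA.LPS.0 level at 1 h and 4.39 times (4.32 to 4.46) at 4 h. Mt2 was 1.92 times (1.87 to 1.97) that level at 1 h and 4.60 times (4.49 to 4.71) at 4 h. In the plot of LPS ratios, Mt1 and Mt2 are the members with the widest gap between the media, beside Slc30a1 and Slc39a10.

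**Figure D2:**
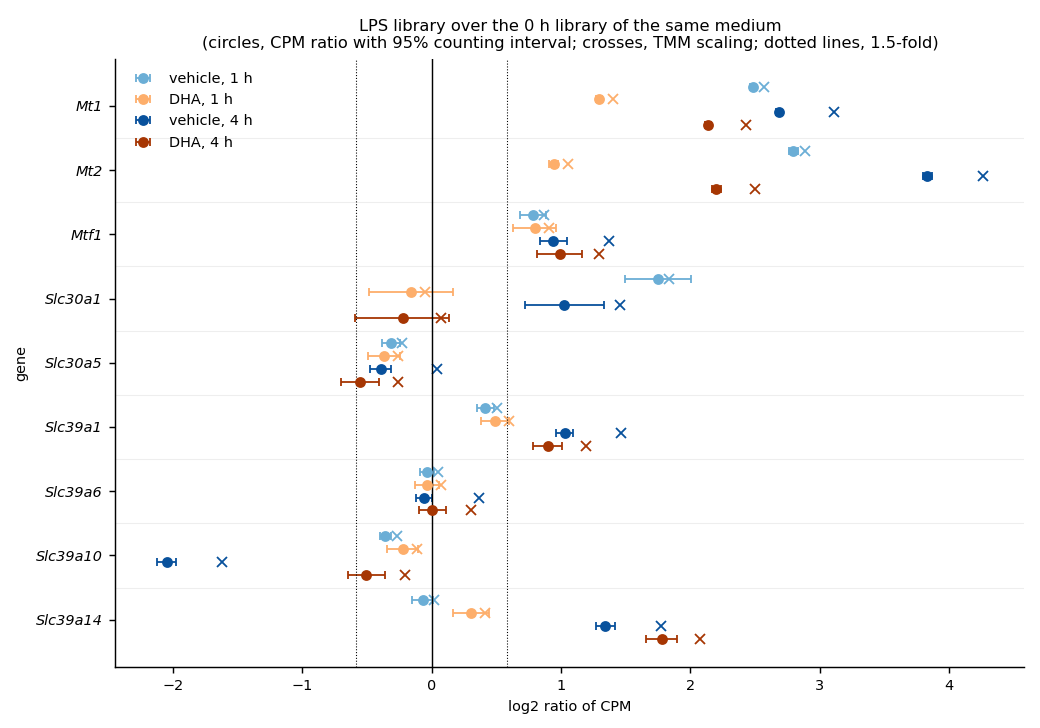
Log2 ratio of CPM between an LPS library and the 0 h library of the same medium for each gene, with blue for vehicle and orange for DHA, pale at 1 h and dark at 4 h; circles carry 95% counting intervals, crosses are the same ratios with TMM scaling and dotted lines mark 1.5-fold. Mt1, Mt2, Mtf1 and Slc39a1 lie right of 0 in all 4 comparisons, Slc39a14 is past the line at 4 h and not at 1 h, and Slc39a10 lies furthest left in vehicle at 4 h (log2 ratio -2.05).

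Both metallothioneins were higher with DHA before LPS, Mt2 by more than Mt1. At 0 h the DHA to vehicle ratio was 3.85 (3.73 to 3.97) for Mt2, rank 8 from the top of all genes tested, and 1.75 (1.71 to 1.78) for Mt1, rank 59. At 1 h of LPS it was 1.06 (1.04 to 1.08) for Mt2, a log2 value of 0.09 that was -0.19 with all barcodes. For Mt1 it was 0.766 (0.758 to 0.774), so Mt1 was lower with DHA by less than the 1.5-fold limit in the kept cells. With all barcodes its log2 value of -0.38 was -0.67, past that limit. At 4 h the DHA to vehicle ratio was 1.24 (1.22 to 1.26) for Mt2 and 1.19 (1.18 to 1.21) for Mt1. These log2 values of 0.31 and 0.25 were 0.19 and 0.13 with TMM scaling. From 0 h to 1 h the log2 DHA ratio fell by 1.86 for Mt2 (counting interval of the change -1.91 to -1.80) and by 1.19 for Mt1 (-1.22 to -1.16). The 3 hours use separate pairs of libraries, but each pair is 1 library against 1. Every change from 0 h uses the same 0 h pair. The fall from 0 to 1 h restates the smaller 1 h LPS ratios in DHA, from the same libraries, and is not a separate result.

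**Figure D3:**
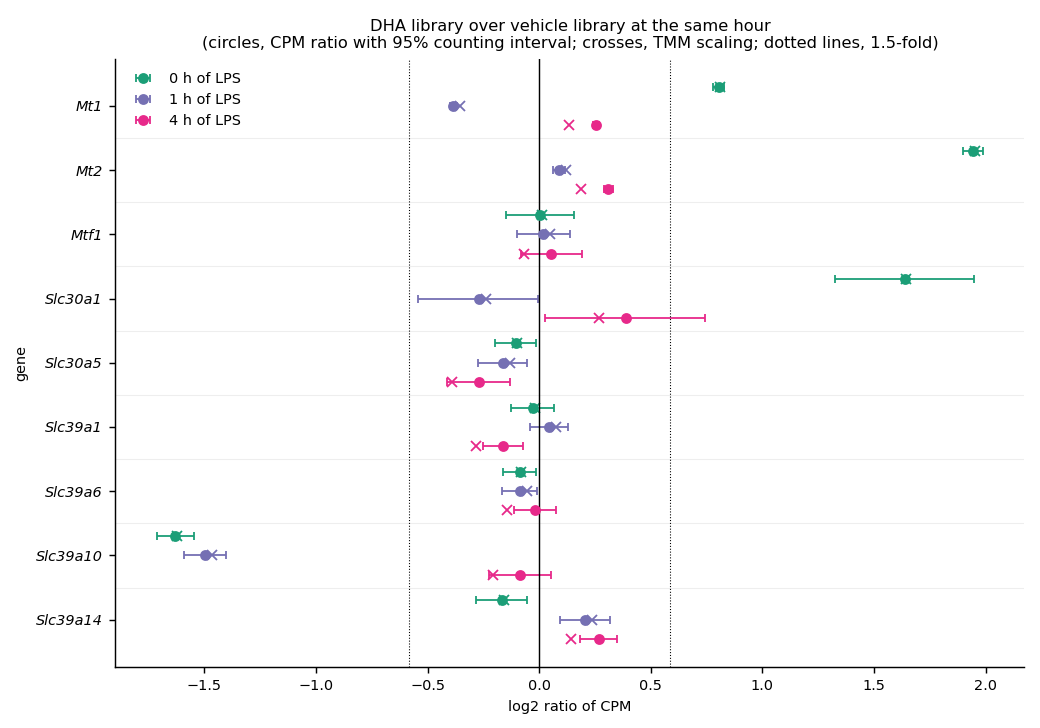
Log2 ratio of CPM between the DHA and the vehicle library at 0 h (green), 1 h (purple) and 4 h (pink) of LPS for each gene; circles carry 95% counting intervals, crosses are the same ratios with TMM scaling and dotted lines mark 1.5-fold. Mt1, Mt2 and Slc30a1 lie past the right line at 0 h and inside the lines at 1 and 4 h, and Slc39a10 lies past the left line at 0 and 1 h and near 0 at 4 h.

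The libraries differed in their share of barcodes with many mitochondrial reads, and this share moved with DHA. Barcodes with at least 20% mitochondrial UMIs were 76.4%, 74.4% and 80.0% of all barcodes in DHA at 0, 1 and 4 h, and 37.8%, 35.8% and 54.7% in vehicle, with 29.0% in Con. The kept cells were alike in this measure, with medians of 6.61% to 7.53% mitochondrial UMIs. In the barcodes at or past 20% alone, which have a median of 5770 to 11781 UMIs and are outside all the values above, the log2 DHA ratio at 0 h was 1.20 for Mt1, 2.22 for Mt2 and -1.92 for Slc39a10, against 0.80, 1.94 and -1.63 in the kept cells. At 1 h those barcodes gave -0.35 for Mt1, 0.02 for Mt2 and -1.34 for Slc39a10. With all barcodes pooled, the ratio of Mt1 at 0 h was below 1.5-fold, at a log2 value of 0.51. All barcodes include those under 20% that failed the limits on UMIs or genes. The part of the cells lost to the mitochondrial limit in the values of the kept cells was not tested further.

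The genes stood at different levels in the 2 kinds of barcode. In CPM of the non-mitochondrial UMIs, Mt1 in Veh.LPS.0 had 333 in the kept cells and 171 in the high-mitochondrial barcodes, and Mt2 had 75.4 and 51.3. Slc39a10 was the reverse, with 124 in the kept cells and 530 in the high-mitochondrial barcodes of that library. So were the other transporters among the members. In the same order Slc30a1 had 1.81 and 3.02, Slc30a5 42.0 and 126, and Slc39a1 37.4 and 82.0. Slc39a6 had 64.9 and 189 and Slc39a14 28.0 and 84.5, while Mtf1 had 15.0 and 12.8. In DHA.LPS.4 Mt1 had 2532 and 2035, and Slc39a10 28.0 and 65.6. A level summed over all barcodes is therefore set in part by the share of each kind.

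The balance between Mt1 and Mt2 shifted as well. Mt2 made up 15.4% of the UMIs of the pair in Con (exact binomial 95% interval 15.2 to 15.6), 18.5% in Veh.LPS.0 (18.1 to 18.9) and 33.3% in DHA.LPS.0 (32.7 to 33.8). It made up 22.0% in Veh.LPS.1 (21.8 to 22.1), 28.1% in DHA.LPS.1 (27.7 to 28.5), 33.4% in Veh.LPS.4 (33.2 to 33.7) and 34.3% in DHA.LPS.4 (34.0 to 34.6). The share in DHA.LPS.0 and that in Veh.LPS.4 had overlapping intervals, although the summed level of the pair was far lower in the former. In the kept cells DHA and vehicle differed by more than counting error at each hour, by least at 4 h. In the high-mitochondrial barcodes the 4 h shares were 35.9% in vehicle (35.3 to 36.4) and 35.6% in DHA (35.2 to 36.0), with overlapping intervals. This share does not depend on how a library is scaled, since both genes are read in the same cells.

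**Figure D4:**
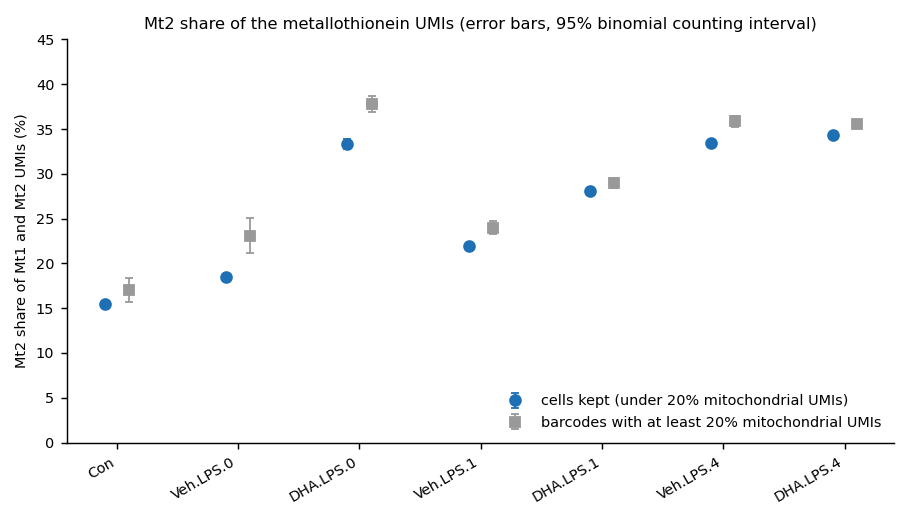
Mt2 as a share of Mt1 and Mt2 UMIs in each library, in percent on an axis from 0, for the kept cells (blue circles) and for barcodes with at least 20% mitochondrial UMIs (grey squares), with 95% binomial counting intervals. Both kinds of barcode give the lowest share in Con (15.4% and 17.0%), and a share in DHA.LPS.0 (33.3% and 37.8%) well above that in Veh.LPS.0 (18.5% and 23.0%).

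The larger differences of the metallothioneins between libraries were seen in the median cell and not in a few cells alone. After each cell was thinned to 20000 UMIs, the median cell had 13 Mt1 UMIs in Con, 5 in Veh.LPS.0, 8 in DHA.LPS.0, 33 in Veh.LPS.1, 24 in DHA.LPS.1, 35 in Veh.LPS.4 and 44 in DHA.LPS.4. The median for Mt2 was 2, 1, 5, 9, 9, 17 and 22 UMIs in the same order. A UMI of Mt2 was found in 61.1% of Veh.LPS.0 cells (59.2 to 63.1) and in 96.4% of DHA.LPS.0 cells (94.8 to 97.7), and a UMI of Mt1 in at least 98.1% of cells in every library.

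**Figure D5:**
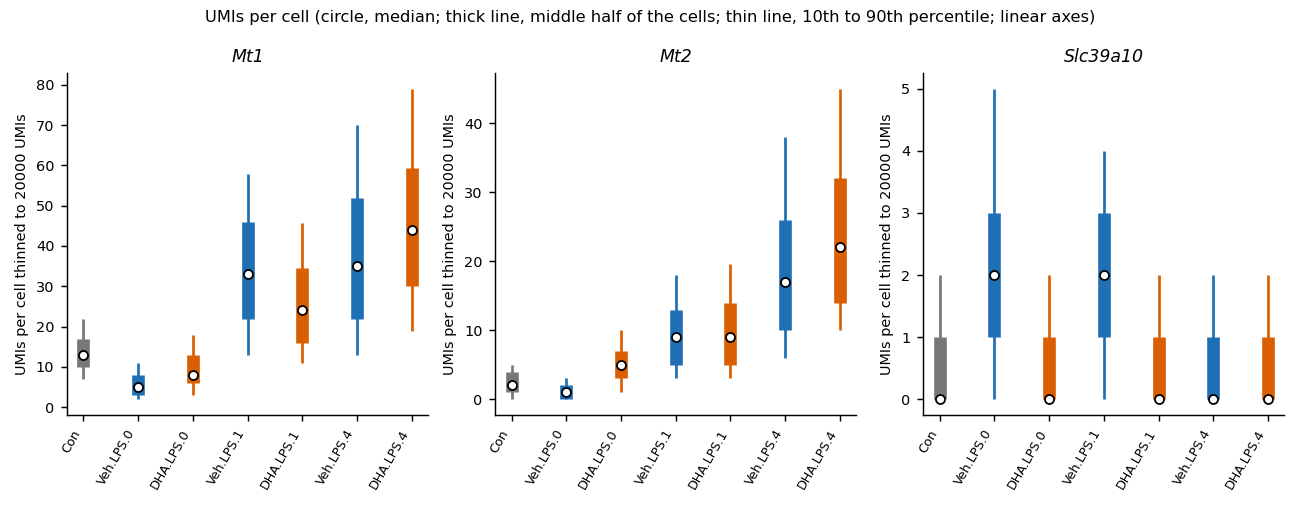
UMIs per cell of Mt1, Mt2 and Slc39a10 in cells thinned to 20000 UMIs, on linear axes: the circle is the median cell, the thick line holds the middle 50% of cells and the thin line runs from the 10th to the 90th percentile. For Mt1 the 10th percentile in Veh.LPS.1 (13 UMIs) is above the 90th in Veh.LPS.0 (11 UMIs), and for Slc39a10 the median is 2 UMIs in Veh.LPS.0 and Veh.LPS.1 and 0 in the other libraries.

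Summed over both metallothioneins, 16 UMIs marked the 95th percentile in Veh.LPS.0. More than 16 were found in 4.51% of cells in Veh.LPS.0 (3.73 to 5.41), 34.8% in DHA.LPS.0 (31.3 to 38.5) and 43.7% in Con (41.9 to 45.5). With LPS the share was 90.4% and 88.7% at 1 h and 95.7% and 99.0% at 4 h, in vehicle and DHA respectively. Cells within 2 UMIs of this line made up 22.6% of DHA.LPS.0 and 29.4% of Con, so the exact share there depends on where the line is drawn. Single cells of very high Mt1 were found in both 0 h libraries. The highest had 168 UMIs in DHA.LPS.0 and 126 in Veh.LPS.0, where the 90th percentiles were 18 and 11. The variance of Mt1 across cells was 11.7 times the mean in DHA.LPS.0 and 3.85 times in Veh.LPS.0. It was 15.3 times in Veh.LPS.4 and 13.9 times in DHA.LPS.4. For Mt2 the variance was 3.13 times the mean in DHA.LPS.0 and 3.52 times in Veh.LPS.0.

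Cells rich in Mt1 tended to be rich in Mt2. Pearson's r between the 2 genes across the thinned cells of a library lay between 0.42 in DHA.LPS.0 and 0.65 in Veh.LPS.1. Spearman's rank correlation ran from 0.28 in Veh.LPS.0, where Pearson's r was 0.55, to 0.67 in Veh.LPS.1. It was 0.32 in DHA.LPS.0 and 0.37 in Con. Cells of a library share its preparation and total. Both genes tended to be lower in cells with more UMIs of 8 proliferation genes, with r between -0.03 and -0.32 over the 7 libraries and the 2 genes. Those 8 genes were all lower with DHA at 0 and 1 h and all higher at 4 h, with median log2 ratios of -0.45, -0.57 and 0.66. Of the 8628 genes tested, 5300 and 5388 were lower at 0 and 1 h and 5729 higher at 4 h. At 4 h of LPS the same 8 were all lower than at 0 h in both media. Their median log2 ratios were -2.06 in vehicle and -0.94 in DHA, beside -0.38 and -0.27 for all genes tested. Cells with no UMI of any of the 8 proliferation genes were only 20 to 281 per library. In them the log2 DHA ratio at 0 h was 0.53 for Mt1, inside the 1.5-fold limit, and 2.06 for Mt2.

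In the kept cells Mtf1 was higher with LPS in both media, and no difference with DHA was detectable. It had 19.6 CPM in Con, 13.8 CPM in Veh.LPS.0, 13.9 CPM in DHA.LPS.0, 23.8 CPM in Veh.LPS.1, 24.1 CPM in DHA.LPS.1, 26.6 CPM in Veh.LPS.4, while DHA.LPS.4 had 27.6 CPM. At each hour the DHA and vehicle libraries could not be told apart from counting alone, with ratios of 1.00 (0.903 to 1.11), 1.01 (0.932 to 1.10) and 1.04 (0.944 to 1.14), the last a log2 value of 0.05 that was -0.07 with TMM scaling. LPS ratios in vehicle were 1.72 (1.61 to 1.84) at 1 h and 1.92 (1.78 to 2.07) at 4 h, and in DHA 1.74 (1.55 to 1.95) and 1.99 (1.76 to 2.24). In cells with no UMI of the proliferation genes the log2 DHA ratio at 1 h was -0.86, past 1.5-fold lower. The 1 h log2 LPS ratio in DHA was -0.03 in them. Those cells were only 59 in DHA.LPS.1, 114 in Veh.LPS.1 and 72 in DHA.LPS.0. Among all kept cells, a UMI was found in 22.8% of cells in the library with the fewest and 42.2% in the one with the most, after thinning.

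Slc30a1, the plasma membrane exporter that MTF-1 switches on, was scarce but followed the metallothioneins at 0 h. It had 539 UMIs or 4.29 CPM in Con, 165 UMIs or 1.67 CPM in Veh.LPS.0, 182 UMIs or 5.20 CPM in DHA.LPS.0 and 530 UMIs or 5.61 CPM in Veh.LPS.1. It had 148 UMIs or 4.65 CPM in DHA.LPS.1, 199 UMIs or 3.40 CPM in Veh.LPS.4, while DHA.LPS.4 had 98 UMIs or 4.45 CPM. Veh.LPS.0 stood alone at the bottom, and the counting intervals of several of the others overlapped. The DHA to vehicle ratio was 3.11 (2.51 to 3.86) at 0 h, 0.830 (0.687 to 0.997) at 1 h and 1.31 (1.02 to 1.68) at 4 h. In vehicle, the LPS ratios were 3.36 (2.81 to 4.02) at 1 h and 2.03 (1.65 to 2.51) at 4 h, whereas in DHA-treated cells the intervals included 1 at both hours. These ratios rest on few molecules. In cells with no UMI of the proliferation genes the log2 DHA ratio at 0 h was 0.13 and not 1.64. Those cells were only 72 in DHA.LPS.0 and 92 in Veh.LPS.0. In the high-mitochondrial barcodes the same log2 ratio was 1.48, on 151 UMIs in DHA.LPS.0 and 25 in Veh.LPS.0.

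Slc30a5, which loads zinc into the secretory pathway, was highest in Con and lowest in DHA.LPS.4. It had 48.9 CPM in Con, 38.7 CPM in Veh.LPS.0, 36.0 CPM in DHA.LPS.0, 31.2 CPM in Veh.LPS.1, 27.8 CPM in DHA.LPS.1, 29.5 CPM in Veh.LPS.4, while DHA.LPS.4 had 24.4 CPM. None of its ratios was past 1.5-fold in any of the 9 comparisons of the kept cells. DHA to vehicle ratios were 0.929 (0.871 to 0.990), 0.893 (0.827 to 0.963) and 0.830 (0.752 to 0.914) at 0, 1 and 4 h. Its 4 h LPS ratio in vehicle had a log2 value of -0.39, which TMM scaling turned to 0.04. In the high-mitochondrial barcodes the 4 h LPS ratio had a log2 value of -0.78 in vehicle and -0.69 in DHA, both past 1.5-fold.

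Slc39a10, an importer of the plasma membrane, was high in vehicle at 0 and 1 h and lower in the other libraries. It had 34.2 CPM in Con, 114 CPM in Veh.LPS.0, 37.0 CPM in DHA.LPS.0, 89.3 CPM in Veh.LPS.1, 31.6 CPM in DHA.LPS.1, 27.6 CPM in Veh.LPS.4, while DHA.LPS.4 had 26.0 CPM. Veh.LPS.0 and Veh.LPS.1 were high and the other 5 libraries lay between 26.0 and 37.0 CPM. The ratio of Veh.LPS.0 to Con was 3.35 (3.23 to 3.47), rank 97 from the top of all genes tested.

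With DHA this higher level was not seen at 0 or 1 h. The DHA to vehicle ratio of Slc39a10 was 0.323 (0.305 to 0.342) at 0 h, rank 4 from the bottom, and 0.354 (0.331 to 0.378) at 1 h, rank 6 from the bottom. At 4 h it was 0.943 (0.856 to 1.04), and the log2 ratio had moved by 1.55 (1.38 to 1.71) from 0 h. In vehicle the gene had 0.780 times (0.759 to 0.803) its 0 h level at 1 h of LPS and fell to 0.241 times (0.229 to 0.254) at 4 h. In DHA-treated cells, already low at 0 h, the ratios were 0.855 (0.787 to 0.929) and 0.704 (0.637 to 0.778). At 4 h in DHA the log2 value of -0.51 was -0.21 with TMM scaling. It was -0.97 in the high-mitochondrial barcodes, past 1.5-fold lower. In kept cells at or below the median mitochondrial share it was -0.18, and in those above it -0.88.

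The share of cells with a Slc39a10 UMI differed in the same way. After thinning it was found in 48.4% of Con cells (46.6 to 50.3), 87.7% of Veh.LPS.0 cells (86.3 to 89.0), 46.3% of DHA.LPS.0 cells (42.5 to 50.1), 79.5% of Veh.LPS.1 cells (78.0 to 80.9) and 44.9% of DHA.LPS.1 cells (41.4 to 48.4). At 4 h the share was 34.4% in vehicle (31.5 to 37.5) and 31.1% in DHA (27.6 to 34.7). At 4 h the 10% of cells with most Slc39a10 UMIs held 53.3% of them in Veh.LPS.4 and 56.8% in DHA.LPS.4. Their means were 0.593 and 0.522 UMIs per thinned cell. This share rises as the mean falls, so the 24.4% in Veh.LPS.0, with a mean of 2.34, is not a like comparison. Libraries of nearer mean had 36.3% (Con, mean 0.710), 40.9% (DHA.LPS.0, 0.749) and 40.1% (DHA.LPS.1, 0.655). The variance across cells was 2.21 and 2.47 times the mean at 4 h, and 1.13 to 1.47 times the mean in the other 5 libraries. Slc39a10 and Mt1 hardly moved together from cell to cell, with r between -0.05 and 0.16.

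Slc39a14, an importer of zinc and other metals known for its induction in inflammation, was past 1.5-fold higher at 4 h of LPS in both media and inside that limit at 1 h. It had 31.4 CPM in Con, 25.8 CPM in Veh.LPS.0, 23.0 CPM in DHA.LPS.0, 24.6 CPM in Veh.LPS.1, 28.4 CPM in DHA.LPS.1, 65.4 CPM in Veh.LPS.4, while DHA.LPS.4 had 78.7 CPM. Both 4 h libraries were above all 5 others. The LPS ratio was 0.953 (0.901 to 1.01) at 1 h and 2.54 (2.41 to 2.67) at 4 h in vehicle, and 1.24 (1.12 to 1.36) and 3.43 (3.15 to 3.73) in DHA. DHA to vehicle ratios were 0.890 (0.821 to 0.963) at 0 h, 1.15 (1.07 to 1.25) at 1 h and 1.20 (1.14 to 1.27) at 4 h, none past 1.5-fold. With all barcodes the log2 value of 0.27 at 4 h was 0.66, past that limit.

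Slc39a1, another plasma membrane importer, was higher at 1 h and highest at 4 h of LPS in both media. It had 30.6 CPM in Con, 34.5 CPM in Veh.LPS.0, 33.8 CPM in DHA.LPS.0, 46.0 CPM in Veh.LPS.1, 47.5 CPM in DHA.LPS.1, 70.5 CPM in Veh.LPS.4, while DHA.LPS.4 had 63.0 CPM. LPS ratios were 1.33 (1.27 to 1.39) and 2.04 (1.95 to 2.14) in vehicle at 1 and 4 h, and 1.40 (1.30 to 1.52) and 1.86 (1.72 to 2.01) in DHA. The DHA to vehicle ratios were 0.980 (0.916 to 1.05), 1.03 (0.973 to 1.09) and 0.894 (0.841 to 0.950).

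Slc39a6, the closest relative of Slc39a10 in the family, was nearly level across the libraries. It had 51.7 CPM in Con, 59.9 CPM in Veh.LPS.0, 56.4 CPM in DHA.LPS.0, 58.4 CPM in Veh.LPS.1, 55.0 CPM in DHA.LPS.1, 57.4 CPM in Veh.LPS.4, while DHA.LPS.4 had 56.6 CPM. The highest level was 1.16 times the lowest. With TMM scaling its 4 h LPS ratio in vehicle had a log2 value of 0.37 in place of -0.06. In the high-mitochondrial barcodes the same log2 ratio in CPM was -0.73, past 1.5-fold lower. In vehicle its flat course at 4 h thus holds only in the kept cells and relative to their total of UMIs. In DHA the 4 h log2 LPS ratio was 0.005 in the kept cells, 0.31 with TMM scaling and -0.03 in the high-mitochondrial barcodes.

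Counted over the 8 members above the 5 CPM mean, the differences were most frequent at 4 h of LPS. In vehicle at 1 h, 3 members were past 1.5-fold of their 0 h level, all higher (Mt1, Mt2 and Mtf1), where 8.82% of all genes tested were past it in either direction, 4.54% higher and 4.28% lower. At 4 h in vehicle 6 were, 5 higher and Slc39a10 lower, where 48.9% of all genes were, 9.74% higher and 39.2% lower. From 1 to 4 h in vehicle 4 were (Mt2, Slc39a1 and Slc39a14 higher, Slc39a10 lower), where 39.5% of all genes were, 7.04% higher and 32.5% lower. Of these, Slc39a1 (log2 0.62) was inside the limit in the high-mitochondrial barcodes (0.37) and in cells with no proliferation UMI (0.54). In DHA-treated cells 3 were at 1 h, all higher, where 9.72% of all genes were, 5.16% higher and 4.57% lower. At 4 h in DHA-treated cells 5 were, all higher, where 42.7% of all genes were, 10.1% higher and 32.5% lower. The members' median log2 ratio at 4 h was 0.99 in vehicle and 0.94 in DHA, beside medians of -0.38 and -0.27 for all genes tested.

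Between DHA and vehicle the count in the kept cells was largest before LPS, but with all barcodes, and in cells with no proliferation UMI, it was 2 at both 0 and 1 h. At 0 h, 3 of the 8 members were past 1.5-fold (Mt1 and Mt2 higher, Slc39a10 lower), where 2.41% of all genes tested were in either direction, 1.29% higher and 1.12% lower. At 1 h only Slc39a10 was, where 3.55% of all genes were, 1.55% higher and 1.99% lower. At 4 h 0 of the 8 were, where 6.14% of all genes were, 3.98% higher and 2.17% lower. The median log2 ratio of the 8 was -0.06, -0.03 and 0.02 at 0, 1 and 4 h, beside -0.05, -0.05 and 0.09 for all genes tested.

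The rest of the zinc transporters and metallothioneins were mostly below 5 CPM or inside 1.5-fold, with Slc39a2, described after them, as an exception. Mt3 had 7 UMIs in Con and 0 elsewhere, Mt4 had 1 UMI in Veh.LPS.4, and Slc30a8, Slc30a10 and Slc39a12 had none in any library, which allows up to 3 UMIs, or 0.0239 to 0.136 CPM by library. Among 8 other exporters 4 had a mean of at least 5 CPM (Slc30a4, Slc30a6, Slc30a7 and Slc30a9), and among 10 other importers 5 did (Slc39a3, Slc39a7, Slc39a9, Slc39a11 and Slc39a13). Between DHA and vehicle 0 of these 9 genes were past 1.5-fold at any hour. Their largest DHA ratio was 1.38 (1.19 to 1.60) for Slc39a11 at 4 h and their smallest 0.793 (0.701 to 0.895) for Slc39a13 at 1 h.

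In Veh.LPS.0 against Con, 1 of these 9 was past 1.5-fold, where 17.7% of all genes were, so the count is near that of any genes. Slc30a4, which moves zinc into vesicles, had 17.4 CPM in Con, 30.1 CPM with vehicle at 0 h and 17.5 CPM in Veh.LPS.4. The ratio of the second to the first was 1.72 (1.63 to 1.82). It had 31.7 CPM in DHA.LPS.0, with a DHA ratio of 1.06 (0.984 to 1.13), where Slc39a10 had 0.323. At 4 h of LPS in vehicle, Slc30a4, Slc39a11 and Slc39a13 were lower than at 0 h, with ratios of 0.583, 0.603 and 0.594. These 3 of 9 stand beside 39.2% of all genes tested that were lower by as much, so the count is near that of any genes. With TMM scaling their log2 ratios were -0.35, -0.30 and -0.32, inside the 1.5-fold limit.

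Slc39a2, an importer with a mean of 3.88 CPM and so outside the counts, was picked out after its values were seen. It had 0.509 CPM in Con, 2.26 CPM in Veh.LPS.0, 8.39 CPM in DHA.LPS.0, 2.03 CPM in Veh.LPS.1, 8.30 CPM in DHA.LPS.1, 1.93 CPM in Veh.LPS.4, while DHA.LPS.4 had 3.72 CPM. The DHA library was the higher at each hour. The DHA to vehicle ratio was 3.72 (3.11 to 4.44) at 0 h, 4.09 (3.38 to 4.95) at 1 h and 1.93 (1.43 to 2.59) at 4 h, on 82 to 294 UMIs per library. The difference with DHA was opposite in direction to that of Slc39a10 at 0 and 1 h. Against Con, both genes were higher in Veh.LPS.0. Slc39a8, an importer known from LPS-treated macrophages, had only 6 to 31 UMIs per library.

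Lists of genes that answer to other known inducers of metallothioneins were read beside the members, with the members' comparisons and no test. Of 8 targets of the oxidant-responsive factor NRF2, 7 had a mean of at least 5 CPM. All 7 had ratios above 1 with DHA at 0, 1 and 4 h, where 3326, 3240 and 5729 of the 8628 genes tested did. Past 1.5-fold higher were 4, 2 and 3 of them, where 1.29%, 1.55% and 3.98% of all genes tested were. In either direction 2.41%, 3.55% and 6.14% of all genes tested were past it. With shares as low as these, a count of 0 in the short lists that follow is near that of any genes. The highest DHA ratio was that of Hmox1, heme oxygenase, with 2.42 at 0 h, 2.54 at 1 h and 2.58 at 4 h. These ratios lay close together at all 3 hours, where that of Mt2 was 3.85, 1.06 and 1.24. With LPS, 5 of the 7 NRF2 targets were past 1.5-fold higher than at 0 h, at 1 and 4 h and in both media. Shares of all genes tested past it higher were 4.54% and 9.74% in vehicle and 5.16% and 10.1% in DHA. In Veh.LPS.0 against Con, 1 of the 7 was past it higher and 3 lower, where 10.3% and 7.31% of all genes were. Of 6 glucocorticoid-induced genes above that mean, 0 were past 1.5-fold with DHA at any hour, and the ratios ran from 0.872 (Fkbp5) to 1.29 (Tsc22d3) at 0 h. Of 5 heat shock genes, 0 were, with ratios at 0 h from 0.809 (Hsph1) to 0.971 (Hspd1). In vehicle at 1 h of LPS, 1 of the 6 glucocorticoid-induced genes was past 1.5-fold higher (Errfi1, 2.17 to 95.3 CPM) and 1 lower. Of the 5 heat shock genes 1 was higher (Dnajb1, 23.5 to 90.2 CPM). Beside these, 4.54% of all genes tested were higher and 4.28% lower.

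Genes of copper handling, the other metal that metallothioneins bind, gave 0 of 9 past 1.5-fold with DHA at any hour. The ratios ran from 0.835 (Atox1) to 1.22 (Atp7a) at 0 h. With LPS the copper transporter Slc31a2 stood out, with 33.7 CPM before LPS in vehicle and 26.9 CPM after 1 h. After 4 h it had 127 CPM in vehicle and 183 CPM with DHA.

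Genes with the most similar course over the 7 libraries were taken among 2040 genes with a mean of at least 20 CPM and a range of at least 2-fold, by Pearson's r of log2(CPM + 1). The 7 points share libraries and totals, so these values describe the course only. For Mt1 they were N6amt1, Slc38a2, Rab10os, Tfec and Actg1, with r of 0.95 to 0.96, and for Mt2 Slc3a2, Slc2a1, Clec4e, Slc7a11 and Ugcg, with r of 0.94 to 0.96. Slc3a2 and Slc7a11 are the 2 subunits of the cystine importer. Mt1 and Mt2 had r of 0.94 with each other.

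For Slc39a10 the nearest included Mvk, H1f0, Acsl3 and Slc25a1, with r of 0.86 to 0.88. Mvk is an enzyme of the mevalonate pathway, Acsl3 activates fatty acids, Slc25a1 exports citrate from mitochondria and H1f0 is a linker histone. Mvk had 21.1 CPM in Con, 63.4 CPM in Veh.LPS.0, 41.4 CPM in DHA.LPS.0, 59.4 CPM in Veh.LPS.1, 34.1 CPM in DHA.LPS.1, 28.6 CPM in Veh.LPS.4, while DHA.LPS.4 had 20.2 CPM. For Slc39a14 the nearest were Sept11, Fam129b, Itpripl2, Syk and Ccny, with r of 0.99 to 1.00. Leaving out Con kept 4 of the 5 for Slc39a14, 2 for Mt2 and 1 each for Mt1 and Slc39a10. For Slc39a10 over those 6 libraries the nearest were Cks1b, Pclaf, Lbr, Rpa2 and Mvk, with r of 0.92 to 0.95, of which Cks1b acts in the cell cycle and Pclaf and Rpa2 in DNA replication.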

How the data were processed

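Single-cell RNA was profiled with the 10x Chromium 3' kit in 7 libraries, 1 per condition. The authors deposited raw UMI counts per gene and barcode, not normalized. File headers and the submitters' processing notes name Cell Ranger 3.1.0, another version than the paper's methods, and the notes name the build mm10. Coordinates are from RefSeq on GRCm38.p6, the same build.

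Cells were kept by the study's limits (over 20000 UMIs, at least 2000 genes, under 20% mitochondrial UMIs), and their counts were summed per library and scaled to CPM. The 7 libraries held 125716982, 98763388, 35027812, 94540624, 31815789, 58598526 and 22045775 kept UMIs in the order Con, Veh.LPS.0, DHA.LPS.0, Veh.LPS.1, DHA.LPS.1, Veh.LPS.4, DHA.LPS.4. Ratios carry exact binomial 95% intervals. For values per cell, each cell was thinned to 20000 UMIs, which left out 0 kept cells. PCR and culture error are not covered by these intervals. No doublet caller was run; leaving out the 5% of cells with most UMIs is an alternative. Of 11624 distinct kept barcodes, 16 occurred in more than 1 library. Python 3.11.15, numpy 2.4.6, scipy 1.17.1, edgeR 4.0.16 (TMM factors) and DESeq2 1.42.0 (size factors) were used, without their tests. Ratios and thinning were tested on simulated data.

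The members, gene lists and comparisons were chosen with earlier results of these data known. All 9 members are described; other zinc genes with a mean of at least 5 CPM are named, other lists by counts and extremes, and for 4 members the 5 genes of most similar course, 1 of which is not reported here.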

Additional observations from a re-analysis of the deposited data

Results flagged for a closer look

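For 3 of the 9 genes the DHA and vehicle libraries differed in opposite directions at different hours of LPS, with counting intervals on opposite sides of no change, and with the same directions under TMM and DESeq2 scaling. The difference between hours was not tested, because each hour is 1 library against 1. How many of all genes tested meet this rule was not counted, so these 3 have no background share beside them. The log2 DHA to vehicle ratio of Mt1 was 0.80 at 0 h, -0.38 at 1 h and 0.25 at 4 h. The same signs were found in the barcodes with at least 20% mitochondrial UMIs, with 1.20, -0.35 and 0.46. The 4 h value of Mt1 was 0.13 with TMM factors, and 0.03 under the alternative that gave the smallest. For Slc30a1 the log2 ratios were 1.64, -0.27 and 0.39 at the same hours, on 98 to 530 UMIs per library, and in the high-mitochondrial barcodes 1.48, -0.23 and 0.41. For Slc39a14 they were -0.17, 0.21 and 0.27, all within the 1.5-fold limit in the kept cells. Over the alternatives its 0 h value ran from -0.51 to 0.26 and its 1 h value from -0.02 to 0.49. The sign at these hours thus did not hold under all of them. With all barcodes the 4 h value was 0.66, past that limit.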

How the results depend on the processing

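Of the 28 member ratios past 1.5-fold, all 28 kept their direction and stayed past it with TMM factors, DESeq2 size factors, a limit of 10000 UMIs, a limit of 10% mitochondrial UMIs, the mean over cells, thinned cells and the 5% of cells with most UMIs left out. With all barcodes 27 did, with the high-mitochondrial barcodes alone (an alternative chosen after seeing the data) 27, and in cells with no UMI of the proliferation genes 25. The counts of members past 1.5-fold moved by over 1.5 times in 4 cases: 5 for Veh.LPS.0 against Con and 2 for DHA.LPS.1 against Veh.LPS.1 in cells with no proliferation UMI, and 2 for DHA.LPS.1 against Veh.LPS.1 and 1 for DHA.LPS.4 against Veh.LPS.4 with all barcodes. The members that came past it with all barcodes were Mt1 at 1 h (log2 -0.67) and Slc39a14 at 4 h (0.66). In cells with no proliferation UMI, Mtf1 came past it in DHA.LPS.1 against Veh.LPS.1 (-0.86). Of the ratios past 1.5-fold, Slc30a1 included, the direction turned for 2, both in cells with no proliferation UMI, which leaves few cells: Slc30a1 in Veh.LPS.4 against Veh.LPS.0 (-0.42) and Mtf1 in DHA.LPS.1 against DHA.LPS.0 (-0.035). The Mt2 share of the pair moved beyond its counting interval to 34.6%, 22.2%, 33.8% and 34.9% with all barcodes (DHA.LPS.0, Veh.LPS.1, Veh.LPS.4, DHA.LPS.4). It moved to 39.7%, 24.8%, 29.8%, 32.4% and 35.1% in cells with no proliferation UMI (DHA.LPS.0, Veh.LPS.1, DHA.LPS.1, Veh.LPS.4, DHA.LPS.4). In the high-mitochondrial barcodes it was 17.0%, 23.0%, 37.8%, 24.0%, 28.9%, 35.9% and 35.6% in the order Con, Veh.LPS.0, DHA.LPS.0, Veh.LPS.1, DHA.LPS.1, Veh.LPS.4, DHA.LPS.4. In Veh.LPS.4 it was 33.2% in thinned cells, and in DHA.LPS.4 34.7% without the 5% of cells with most UMIs. The cause was not tested in any of these cases. No paired analysis was possible because each condition is 1 library. Ratios inside 1.5-fold turned more often, under several alternatives, TMM factors and all barcodes among them. Counts were low for Slc30a1 and Slc39a2, at 64 to 539 UMIs per library, and lower for Slc39a8, at 6 to 31.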
